A study of Homo sapiens with 12 samples.

Results

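The clustered replication-dependent histone genes are the core and linker histone genes that lie together on chromosomes 6 and 1 of GRCh38. They were chosen by name, as every row of the count table carrying an H1-1 to H1-5, H2AC, H2BC, H3C or H4C symbol (65 names), and by level, as those whose raw counts over all 12 libraries summed to at least 50. This left 40 genes of the 59385 names in the table, and all 40 passed the filter on low counts that left 18166 genes for testing. The 40 genes comprised 4 of H1, 9 of H2A, 12 of H2B, 7 of H3 and 8 of H4. Of the other 25 names, 8 had no count and 17 had fewer than 50. H1-5, with 73 summed counts, was the member nearest above the limit, and H4C11, with 46, was the name nearest below it.

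Replication-dependent histone mRNAs are made in S phase, when newly copied DNA has to be packed into nucleosomes. They are the only metazoan mRNAs that normally end without a poly(A) tail: their 3′ end is cut just after a short hairpin that is bound by the stem-loop binding protein SLBP, which also serves in their translation and decay. Some of these genes are also transcribed past the hairpin to an ordinary poly(A) site. The libraries described here were enriched for poly(A) RNA, so that a mature tailless histone mRNA should enter them poorly, and the values below are levels in poly(A)-enriched libraries and not levels of all histone mRNA.

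The study asked how the RNA-binding protein PRRC2B acts on translation. HEK293T cells, a transformed human embryonic kidney line, carried a doxycycline (Dox)-inducible shRNA that was either non-silencing (shCtrl) or directed against the PRRC2B coding sequence (shPRRC2B). RNA was collected 36 h after Dox was added to both lines, either from whole lysates (total) or from the pooled heavy fractions of a sucrose gradient after cycloheximide (polysome), with 3 biological replicates of each of the 4 groups. Each shRNA was present in a line grown from a single clone, so that the shRNA and the line cannot be told apart. Library totals ranged from 9855734 to 20837542 counts. PRRC2B mRNA had a log2 change of −1.49 in total RNA (standard error, SE, 0.17, adjusted p = 4.25e-06, edgeR quasi-likelihood test) and of −1.33 in polysome RNA (SE 0.20, adjusted p = 5.03e-05).

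The hairpin that defines these mRNAs was searched for in the first 150 nt after each stop codon, as a perfect stem of 6 base pairs beginning with GGC around a loop of 4 bases. It was found in 39 of the 40 genes, starting 24 to 63 nt after the stop codon in the 3′ UTR. In the same window, 24 of 19537 protein-coding genes without such a histone name (0.123%) held a match. The 39 hairpins took 6 forms, and 1 gene of each form is shown, with the hairpin in capitals and 5 bases on either side, from the GRCh38 sequence. H2AC11, the member without a match, is shown as well, since it has the same structure when 1 G-T pair in the stem is allowed (chr6:27133510-27133535, plus strand).

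H2BC18: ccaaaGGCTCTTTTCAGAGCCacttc

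H4C8: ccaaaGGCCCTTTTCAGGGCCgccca

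H2BC12: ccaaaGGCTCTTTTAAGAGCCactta

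H4C9: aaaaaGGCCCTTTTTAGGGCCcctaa

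H2AC20: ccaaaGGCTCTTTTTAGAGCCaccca

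H3C6: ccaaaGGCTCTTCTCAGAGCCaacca

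H2AC11: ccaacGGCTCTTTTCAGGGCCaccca

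These stretches lie at chr1:149811880-149811905 (minus strand) for H2BC18, chr6:26285126-26285151 (minus) for H4C8 and chr6:27146361-27146386 (minus) for H2BC12. Those of H4C9, H2AC20 and H3C6 lie at chr6:27139649-27139674, chr1:149887386-149887411 and chr6:26225591-26225616, all on the plus strand. The form of H2BC18 was shared by 23 members from H1, H2A, H2B and H3, that of H4C8 by 6 H4 genes, and that of H2BC12 by 5 H2B genes and H2AC21. H4C9 shared its form with H4C15, and the forms of H2AC20 and H3C6 stood alone.

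Of the 40 genes, 34 lie on chromosome 6 and 6 on chromosome 1 (H2AC20, H2AC21, H2BC18, H2BC21, H3C13 and H4C15). GENCODE 44 gives 12 of them at least 1 transcript that ends more than 50 nt past the hairpin, namely H2AC6, H2BC4, H2BC5, H2BC6, H2BC11, H2BC15, H2BC18, H2BC21, H3C6, H3C10, H4C8 and H4C15. Histone genes are also near copies of each other, and read pairs that map to several places were not counted. In 5 members fewer than 50% of the 50-base windows occur once in the genome: 42.8% in H2BC12, 36.5% in H2AC13, 27.9% in H3C13, 26% in H2BC18 and 0% in H4C15. Read pairs that fall wholly in the other windows are lost, so the counts of these 5 genes are likely too low. In H4C15 every window of the canonical transcript occurs at least 2 times. GENCODE 44 also gives H4C15 2 transcripts that end past the hairpin, and where its 115 counts lie was not tested. The reads were counted without regard to strand, and 7 members overlap another annotated gene, among them H2AC21 with BOLA1, H2BC4 with HFE and H2BC18 with FCGR1A.

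In total RNA the 40 genes together were a small part of each library. Their summed level in CPM (counts per 1000000 library counts, with libraries scaled by edgeR's TMM factors) was 68.1, 64.9 and 61.4 in the 3 shCtrl total libraries and 49.1, 51.8 and 53.4 in the 3 shPRRC2B total libraries. In the shCtrl polysome libraries it was 652, 1976 and 1660 for replicates 1, 2 and 3, and in the shPRRC2B polysome libraries 663, 559 and 400 (399.6). The polysome libraries lay above every total library in both lines. Within shCtrl, polysome replicates 2 and 3 stood well above replicate 1, and replicate 1 lay at the level of shPRRC2B polysome replicate 1. By means the polysome sum was 22.1 times the total sum in shCtrl and 10.5 times in shPRRC2B. These folds depend on the TMM factors and were smaller by library totals alone. By library totals the shCtrl sums were 90.1 to 97.7 in total and 474 to 1465 in polysome RNA. Those of shPRRC2B were 67.1 to 73.9 and 272 to 488.

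**Figure D1:**
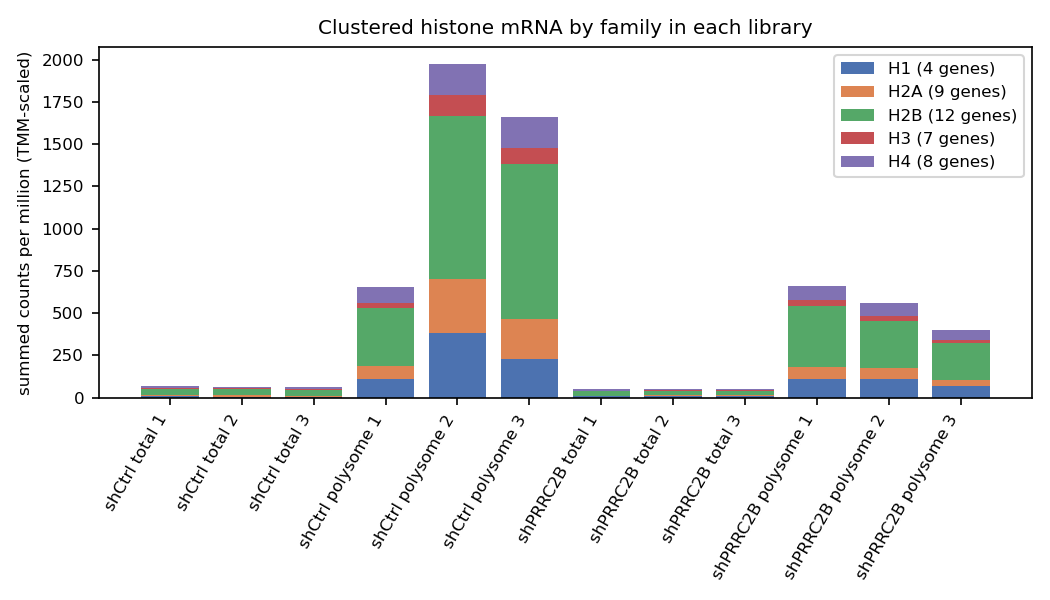
Summed CPM of the 40 genes in each of the 12 libraries, stacked by histone family (linear axis from 0). The shCtrl polysome libraries 2 and 3 reach 1976 and 1660, the other 4 polysome libraries lie between 400 (399.6) and 663, and the 6 total libraries lie between 49.1 and 68.1.

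The families kept much of their order across the groups. H2B genes made up 58% of the summed level in shCtrl total, 51.9% in shCtrl polysome, 50.3% in shPRRC2B total and 52.8% in shPRRC2B polysome. H1 was the next family in polysome RNA, with 16.8% in shCtrl and 18% in shPRRC2B. H3 genes gave the lowest share of polysome RNA in both lines, 5.88% in shCtrl and 4.68% in shPRRC2B.

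H2BC12 carried the most reads of any member. It was at 25, 23.5 and 20 CPM in shCtrl total, 221, 377 and 339 in shCtrl polysome, 18.8, 18.9 and 17.9 in shPRRC2B total and 221, 155 and 158 in shPRRC2B polysome. Its share of all histone counts was 32.5% to 38.2% in every total library and 33.9% in shCtrl polysome 1, but 19.1% and 20.4% in shCtrl polysome 2 and 3. In the 3 shPRRC2B polysome libraries the share was 33.3%, 27.7% and 39.5%. The 2 libraries with the highest histone sum thus also had another mix of histone genes, with less of it from H2BC12 and more from genes that were nearly absent from total RNA.

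Per kb of canonical transcript, mean levels in shCtrl total RNA were highest for H2BC12 (46.1 CPM per kb), H4C9 (21.6) and the linker histone gene H1-2 (8.82). In shCtrl polysome RNA H2BC12 was again first at 632 CPM per kb, followed by H2BC18 at 277, H1-2 at 183, H1-4 at 128 and H4C9 at 124. The order of the last 4 is not firm, since in shCtrl polysome 1 H4C9 (63.1 CPM, from the shorter mRNA) lay above H2BC18 (29.6 CPM). Reads on annotated exons outside the canonical transcript of H2BC18 also enter its level per kb. In shPRRC2B polysome RNA the order was H2BC12 (359 CPM per kb), H4C9 (128) and H1-2 (110), with H2BC18 at 45.5.

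The first comparison asks how far these mRNAs were represented in polysome RNA relative to total RNA of the same line. In shCtrl, 38 of 40 members were higher in polysome RNA and 1 was lower at adjusted p under 0.05 and a log2 change past 0.5, against 32.5% of all tested genes higher and 39.8% lower. In shPRRC2B, 37 were higher and 0 lower, against 36.6% and 42.3% (0 members also had an unadjusted p under 0.05 with a lower level in edgeR, and DESeq2 called 0 lower). The median log2 difference over the members was 5.27 in shCtrl and 3.87 in shPRRC2B, beside −0.22 over all genes in each line. By library totals in place of TMM factors it was 4.28 and 2.96, beside −1.22 and −1.16. Genes without total counts had lower bounds above the TMM medians, so setting these genes at their bounds could not move the medians. The rule let genes in on counts from any library, and 15 members had fewer than 10 counts in every total library. Only 19 members would have reached 50 counts from the total libraries alone, so the count of genes higher in polysome RNA is a description of the members and not a result about them.

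**Figure D2:**
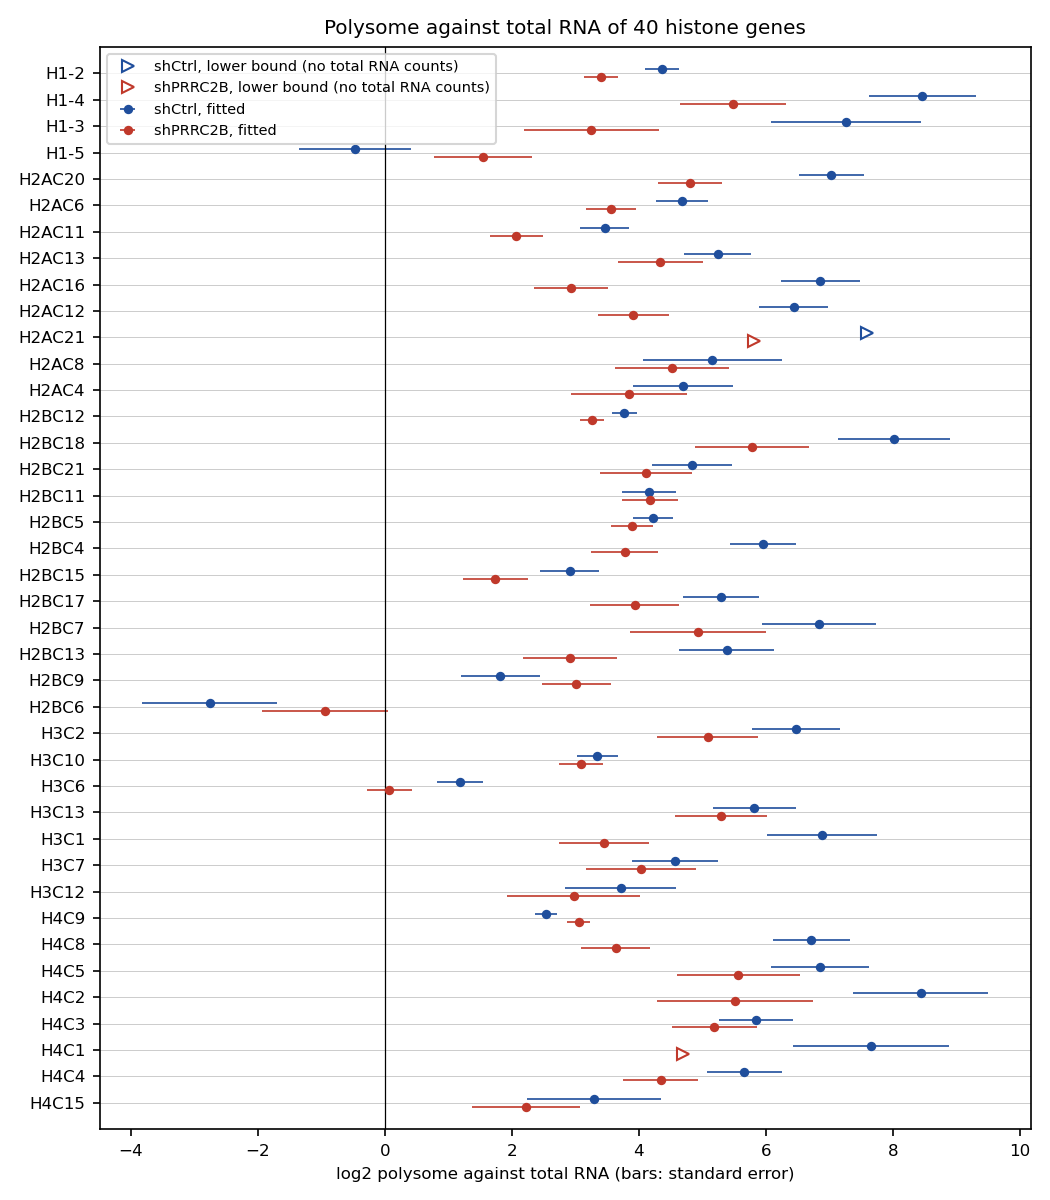
Fitted log2 level in polysome RNA against total RNA for each of the 40 genes in shCtrl and shPRRC2B (points, with standard errors), and lower bounds (open triangles) where the total libraries of a line held no count. H2BC6 and, in shCtrl, H1-5 are the genes to the left of 0, and all others lie to its right.

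H2AC21 had no count in any of the 6 total libraries. With the floor of 3 counts over a line's total libraries it was at least 194-fold higher in polysome RNA in shCtrl and at least 56.1-fold higher in shPRRC2B. H4C1 had 2 counts in all shCtrl total libraries and 206 in the polysome libraries, a ratio of 244 with a 95% counting interval of 66.6 to 2025. In shPRRC2B it had 0 and 35 counts, so that it was at least 25.9-fold higher. H4C2 had 2 total counts in each line, and its ratio was 414 in shCtrl (interval 114 to 3431) and 58.7 in shPRRC2B (interval 15.5 to 497). These intervals and bounds cover counting error only. H2AC21, H4C1 and H4C2 reached the count limit only through the polysome libraries, so their folds are a description and not a result.

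H1-4, which encodes a linker histone, was at 0.302, 0.292 and 0.207 CPM in shCtrl total and at 29.5, 171 and 101 in shCtrl polysome. The polysome values lay far above the total values, and the log2 difference was 8.46 (SE 0.84, adjusted p = 5.63e-08, edgeR). In shPRRC2B it was at 0.327, 0.465 and 0.175 in total and 14.9, 28.1 and 2.28 in polysome RNA, a difference of 5.48 (SE 0.83, adjusted p = 9.22e-06). H1-4 had 19 counts over the shCtrl total libraries and 24 over those of shPRRC2B. It reached the count limit only through the polysome libraries, so these differences and p-values are a description and not a result. H2BC18 gave 8.01 in shCtrl (SE 0.88, adjusted p = 1.94e-07) and 5.78 in shPRRC2B (SE 0.90, adjusted p = 1.17e-05).

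H2BC6 was the exception. It had 20, 17 and 13 counts in shCtrl total, 0, 3 and 0 in shCtrl polysome, 10, 5 and 10 in shPRRC2B total and 6, 0 and 0 in shPRRC2B polysome. In shCtrl its level in polysome RNA was 0.142 times that in total RNA, with a 95% counting interval of 0.0283 to 0.439 since it rests on 3 counts. This passed the test (adjusted p = 0.0261, edgeR), and the call was lost without shCtrl total 1 or 3 or without shCtrl polysome 1 or 3 (adjusted p = 0.0549, 0.0609, 0.0866 and 0.0852). H1-5, the member with the fewest counts, did not pass the test in either line. H3C6, the gene with a loop of its own, rose by 1.18 in shCtrl (SE 0.36, adjusted p = 0.00732) and gave 0.07 in shPRRC2B (SE 0.35, adjusted p = 0.853).

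Short mRNAs in general had higher levels in the polysome libraries, and the histone mRNAs are short. The median log2 difference over all tested genes with a canonical transcript under 1000 nt was 2.26 in shCtrl and 2.84 in shPRRC2B, beside −1.13 and −1.52 for those over 3000 nt. With the trend on transcript length removed from each library, the median difference was 3.32 in shCtrl with 32 members higher and 2 lower, against 30.9% and 29.7% of all genes. In shPRRC2B it was 1.39 with 17 members higher and 2 lower, against 34.5% and 33.8%, so that the share of members higher was near that of all genes. H4C9, 1 of the 2 most abundant H4 genes, moved from 2.54 to 0.42 in shCtrl under that correction. In shCtrl 2 members turned to a negative value, H2BC9 (−0.26) and H3C6 (−0.90), neither past the threshold. In shPRRC2B 5 did, H1-5 (−0.73), H2AC11 (−0.45), H2BC15 (−0.76), H4C15 (−0.28) and H3C6 (−2.45, adjusted p = 1.87e-05), of which H3C6 passed the threshold.

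Other histone genes, mostly for replication-independent variants with polyadenylated mRNAs, served as a list for comparison. H2AX, which is known to give both kinds of 3′ end, was the 1 gene on it with a hairpin match. Of 15 tested, 11 were higher and 1 lower in polysome RNA of shCtrl, against 32.5% and 39.8% of all tested genes. In shPRRC2B 11 were higher and 3 lower, against 36.6% and 42.3%. The medians were 2.10 and 2.08. H2AZ1, a variant placed at promoters, was at 255, 280 and 267 CPM in shCtrl total and 2477, 2774 and 2314 in shCtrl polysome. Its log2 difference was 3.24 in shCtrl (SE 0.14, adjusted p = 1.63e-12) and 3.60 in shPRRC2B (SE 0.14, adjusted p = 1.87e-13). The genes on this list thus had nearly the same median in both lines, whereas the median of the clustered genes was lower in shPRRC2B. Without shCtrl polysome 2 and 3 the medians of the clustered genes were 3.94 in shCtrl and 3.78 in shPRRC2B.

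The second comparison asks whether polysome RNA of the shPRRC2B line held other amounts of these mRNAs than that of shCtrl. Of the 40 members, 30 were lower and 1 was higher, against 21.4% of all tested genes lower and 18.4% higher. The median log2 change was −1.89, beside −0.01 over all genes, and 34 members were below 0. Only 36 members would have reached 50 counts without the shCtrl polysome libraries, the group that was higher, and 27 of these were lower. H1-3, H3C7 and H4C1, which were called lower, and H2AC4, which was not, reached the limit through that group. By family, 3 of 4 H1, 7 of 9 H2A, 10 of 12 H2B, 4 of 7 H3 and 6 of 8 H4 genes fell, and the median change was −1.54, −2.08, −2.06, −1.36 and −1.73 in that order. In bulk RNA fewer cells in S phase and less histone RNA per cell cannot be told apart.

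The fall rests on shCtrl polysome replicates 2 and 3. Both stood above shCtrl polysome 1 in 35 of 40 members and above all 3 shPRRC2B polysome libraries in 34. shCtrl polysome 1 lay above all 3 shPRRC2B libraries in 19 members, within their range in 15 and below them in 6. These positions were counted for the members only, so how many of all tested genes share them is not known. All 3 shCtrl values were above all 3 shPRRC2B values in 18 members, or 45%, and over all tested genes this was so for 21.5%. Without replicates 2 and 3, a choice made after the data had been seen, 2 members were lower (H2AC11 and H2AC12) and 2 higher (H2AC8 and H2BC9), against 19.7% and 11.5% of all genes in that fit. The median change was −0.46, and 28 members were below 0. That fit keeps 1 shCtrl polysome library, which is assumed to vary like the libraries of the other groups. Leaving out only replicate 2 left 23 members lower, and only replicate 3 left 25, against 23% and 22.1% of all genes.

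**Figure D3:**
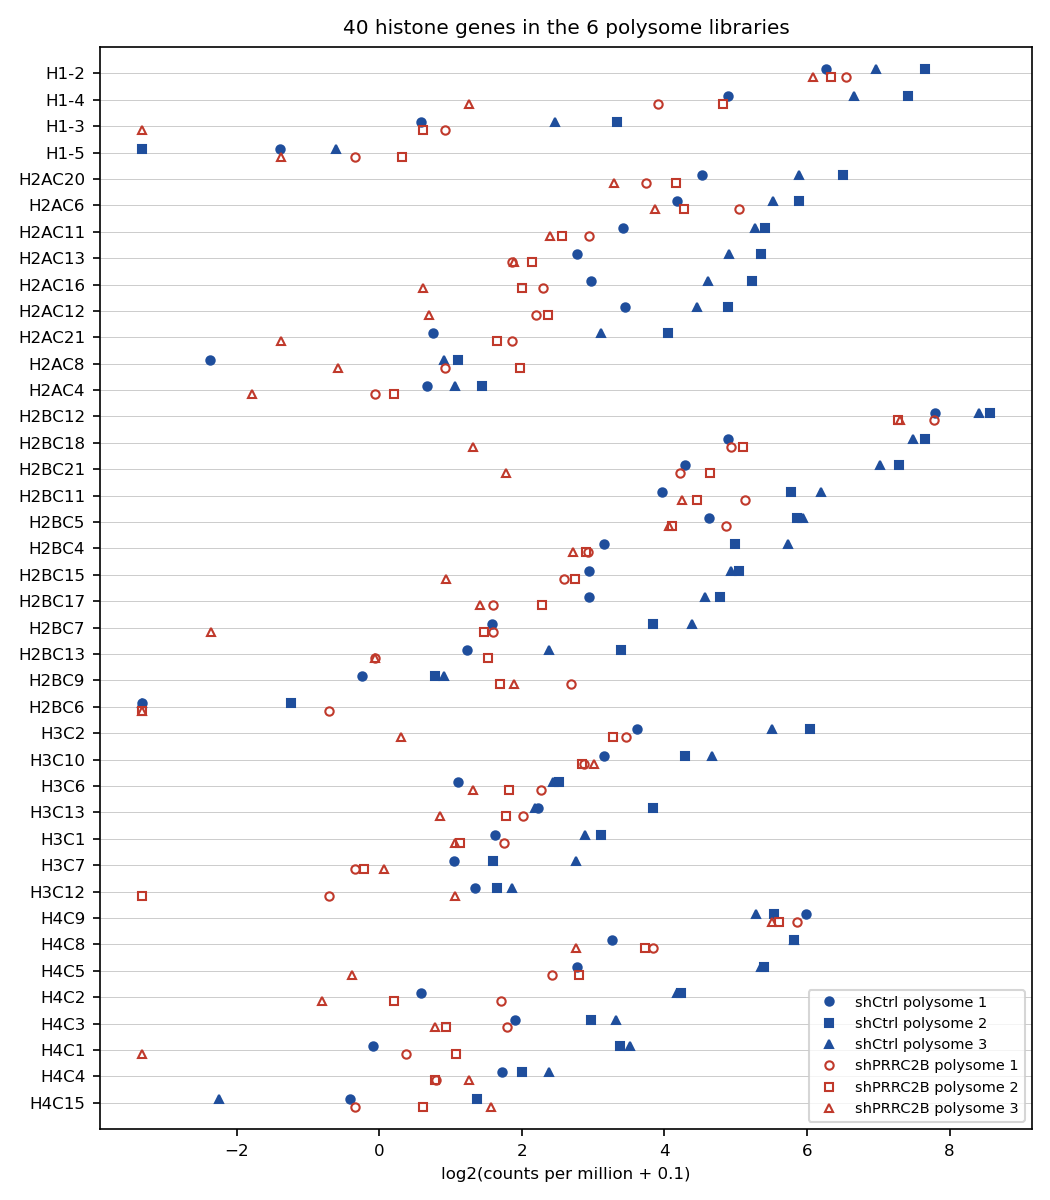
Level of each of the 40 genes in the 6 polysome libraries, as log2(CPM + 0.1), with shCtrl in filled and shPRRC2B in open symbols and replicates 1, 2 and 3 as circles, squares and triangles. For most genes the filled squares and triangles lie to the right, and the filled circle lies near the open symbols.

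H2BC18, among the members with the most reads, showed this pattern. It was at 0.491, 0.730 and 0.207 CPM in shCtrl total and 0.420, 0.465 and 0.306 in shPRRC2B total. In polysome RNA it was at 29.6, 201 and 179 in shCtrl and 30.5, 34.3 and 2.38 in shPRRC2B. shCtrl replicate 1 lay within the shPRRC2B range, and shPRRC2B replicate 3 lay far below every other polysome library. The polysome change was −2.60 (SE 0.62, adjusted p = 0.0024) with all libraries and −0.51 (adjusted p = 0.601) without shCtrl polysome 2 and 3. The other H2B gene with a high level, H2BC12, changed by −0.81 (SE 0.18, adjusted p = 0.00122), and by −0.42 without these libraries (adjusted p = 0.101).

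Of the 4 linker histone genes 3 were called lower, with changes of unlike size, and H1-5, with the fewest counts, gave 1.33 (SE 0.87, adjusted p = 0.232). H1-3, 1 of the 3, reached the count limit only through the shCtrl polysome libraries. H1-2 was at 76.7, 201 and 124 CPM in shCtrl polysome and 93.1, 80.8 and 67.6 in shPRRC2B polysome, so that shCtrl replicate 1 lay inside the shPRRC2B range. Its log2 change was −0.73 (SE 0.23, adjusted p = 0.017, edgeR), and the call was lost without shCtrl polysome 2 (−0.41, adjusted p = 0.0905). That of H1-4 was −2.73 (SE 0.57, adjusted p = 0.000839), with shCtrl replicate 1 just above the highest shPRRC2B library. Without shCtrl polysome 2 and 3 these changes were −0.04 for H1-2 (adjusted p = 0.914) and −1.09 for H1-4 (adjusted p = 0.182).

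Of the H2A genes, H2AC20 was at 22.9, 90.5 and 59.2 CPM in shCtrl polysome and 13.3, 17.8 and 9.70 in shPRRC2B polysome. The groups did not overlap, and the change was −2.08 (SE 0.37, adjusted p = 0.000213, edgeR). H2AC11 was at 10.6, 42.5 and 38.5 against 7.57, 5.83 and 5.14, again without overlap, and its change of −2.30 (SE 0.37, adjusted p = 9.56e-05) also passed the test without shCtrl polysome 2 and 3 (adjusted p = 0.0477). H2AC6 was at 18, 59.1 and 46 against 33, 19.3 and 14.5, with overlapping groups. Its change of −0.88 (SE 0.34) passed the test (adjusted p = 0.042), but not with any of 8 single libraries left out (adjusted p up to 0.186), and it turned to 0.20 without shCtrl polysome 2 and 3.

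Of the H3 genes, H3C2 was at 12.2, 65.5 and 45.3 CPM in shCtrl polysome and 10.9, 9.65 and 1.14 in shPRRC2B polysome. Its change was −2.49 (SE 0.53, adjusted p = 0.00105, edgeR) and −0.85 (adjusted p = 0.303) without shCtrl polysome 2 and 3. H3C10 was at 8.80, 19.5 and 25.3 against 7.22, 7.07 and 7.99, and changed by −1.26 (SE 0.29, adjusted p = 0.002). In both genes shCtrl replicate 1 lay just above the highest shPRRC2B library. H3C6 did not pass the test (−0.29, SE 0.36, adjusted p = 0.549).

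Of the 8 H4 genes 6 were called lower, and H4C9 and H4C15 were not. H4C2 changed by −2.98 (SE 0.69, adjusted p = 0.0021), H4C5 by −2.80 (SE 0.58, adjusted p = 0.00087) and H4C1 by −2.79 (SE 0.84, adjusted p = 0.0137), in edgeR. H4C1 reached the count limit only through the shCtrl polysome libraries, with 206 of its 243 counts, so its fall is a description and not a result. H4C5 was at 6.74, 42 and 40.7 CPM in shCtrl polysome and 5.25, 6.88 and 0.666 in shPRRC2B polysome, so that shCtrl replicate 1 lay within the shPRRC2B range. H4C2 and H4C1 turned to 0.076 and 0.22 without shCtrl polysome 2 and 3, and H4C1 was not called by DESeq2 (adjusted p = 0.158) or without shCtrl polysome 3 (adjusted p = 0.0507). H4C9 was at 63.1, 46.4 and 38.7 in shCtrl and 58.2, 48.7 and 45.4 in shPRRC2B, a change of 0.04 (SE 0.17, adjusted p = 0.889). In H4C9 shCtrl replicate 1 was thus the highest of the 3 shCtrl polysome libraries.

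**Figure D4:**
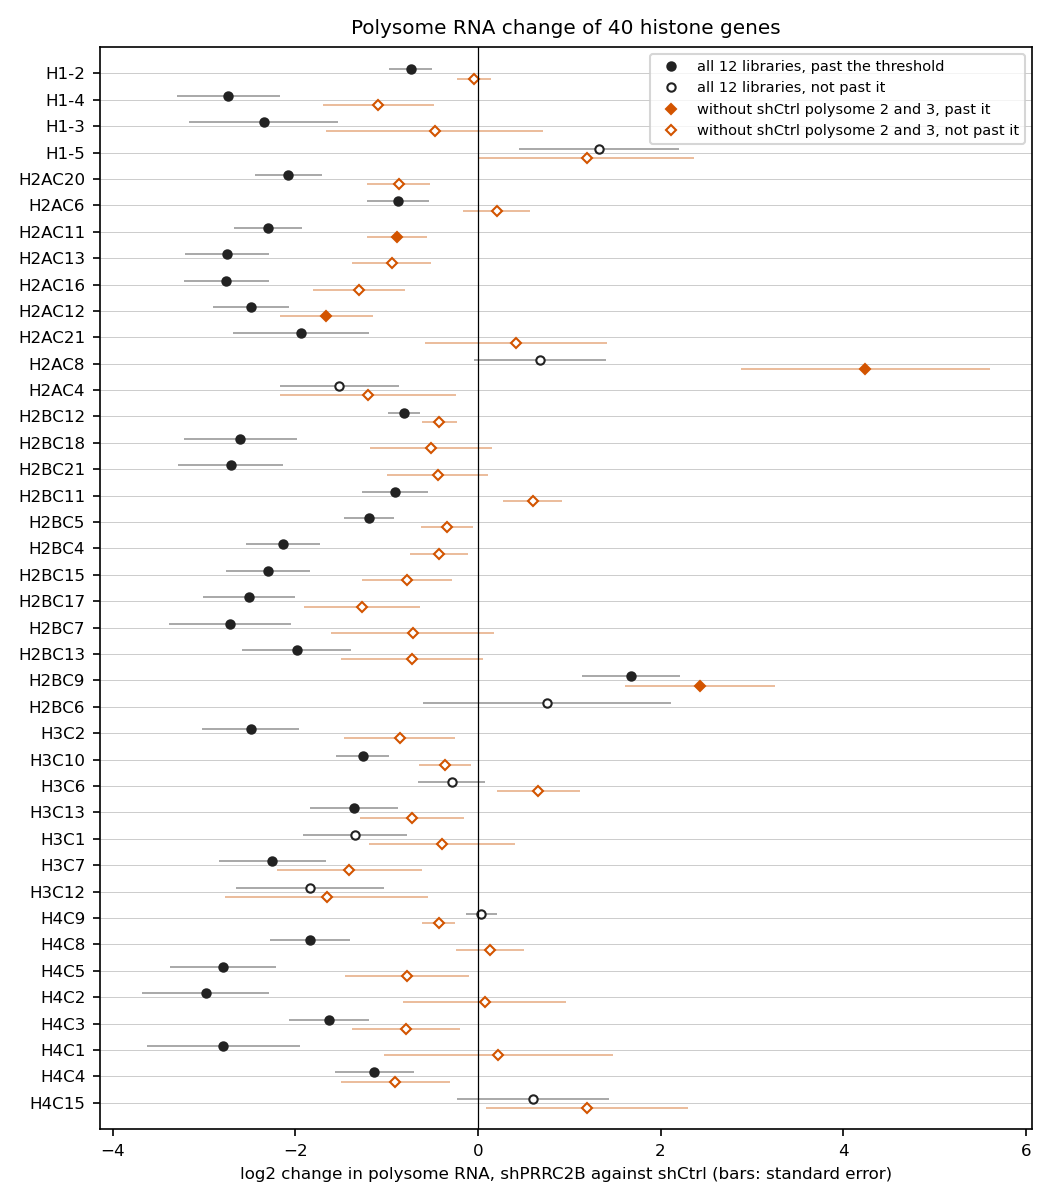
Log2 change in polysome RNA of shPRRC2B against shCtrl for each gene with its standard error, from all 12 libraries (circles) and without shCtrl polysome 2 and 3 (diamonds), filled where the gene passed adjusted p under 0.05 and a log2 change past 0.5. In all libraries 31 genes pass, 30 of them to the left of 0, and without the 2 libraries 4 pass. H2BC6 has no diamond because the remaining shCtrl polysome library held no count of it.

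H2BC9 was the only member that passed the test in the other direction. It was at 0.749, 1.63 and 1.77 CPM in shCtrl polysome and 6.36, 3.15 and 3.62 in shPRRC2B polysome, without overlap, from 8 to 74 counts per library. The change was 1.67 (SE 0.54, adjusted p = 0.0173, edgeR), and it was not called without shCtrl polysome 1 (adjusted p = 0.0676) or without shPRRC2B polysome 1 (adjusted p = 0.124).

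Members with a transcript annotated past the hairpin and the others were set side by side. The 12 members with such a transcript had a median polysome change of −1.23 with 9 lower, and the 28 others a median of −2.03 with 21 lower. In shCtrl total RNA the median level was 2.32 CPM per kb for the 12 and 0.372 for the 28, and in shCtrl polysome RNA 57 and 22.7. Counts cover all annotated exons but the length is that of the canonical transcript, so levels per kb of the 12 can be too high. By hairpin form, the 6 H4 genes with the form of H4C8 were all called lower (median −2.31), as were the 6 genes with the form of H2BC12 (median −1.56). Of the 23 genes with the form of H2BC18, 16 were called lower (median −1.98), and neither gene with the form of H4C9 was. H1-3, H3C7 and H4C1, among those called lower here, reached the count limit only through the shCtrl polysome libraries. These groups were formed with the values known and were not tested.

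Of the RNAs that normally lack a poly(A) tail, 3 were highest in the same polysome libraries as the histone mRNAs, and others were not. MALAT1, a nuclear RNA whose 3′ end is a triple helix, was at 15, 162 and 369 CPM in shCtrl polysome 1, 2 and 3 and at 4.39, 17 and 7.33 in the shPRRC2B polysome libraries. RMRP, the RNA of a ribosomal RNA processing enzyme, was at 0.656, 3.91 and 7.54 against 0.516, 0.955 and 0. SCARNA2, a guide RNA of Cajal bodies, was at 0.656, 4.01 and 3.55 against 0.430, 0 and 0. In all 3 RNAs shCtrl polysome 2 and 3 were the highest of the 6 polysome libraries and shCtrl polysome 1 was near the shPRRC2B libraries.

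The list of such RNAs had 9 genes, chosen after the data had been seen, of which 4 could be tested and 5 were at or near 0 (RN7SK, RN7SL2 and TERC had no count in any library). In polysome RNA 3 of the 4 were lower in shPRRC2B, by −4.26 for MALAT1 (adjusted p = 0.000132), −3.01 for RMRP (adjusted p = 0.00677) and −4.10 for SCARNA2 (adjusted p = 0.0017). RN7SL1 was not (−0.64, adjusted p = 0.225), and it was lower in polysome than in total RNA in both lines. RPPH1, which was not tested, was at 0.468, 0.326 and 2.00 CPM in shCtrl polysome and 0.430, 1.05 and 0.666 in shPRRC2B polysome, with shCtrl polysome 2 lowest. The summed level of the 9 was 23.5, 176 and 396 CPM in the shCtrl polysome libraries, 10.9 to 26.4 in the shPRRC2B polysome libraries, 182 to 249 in shCtrl total and 96.2 to 165 in shPRRC2B total. The part that capture of tailless RNA had in the histone values was not tested.

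**Figure D5:**
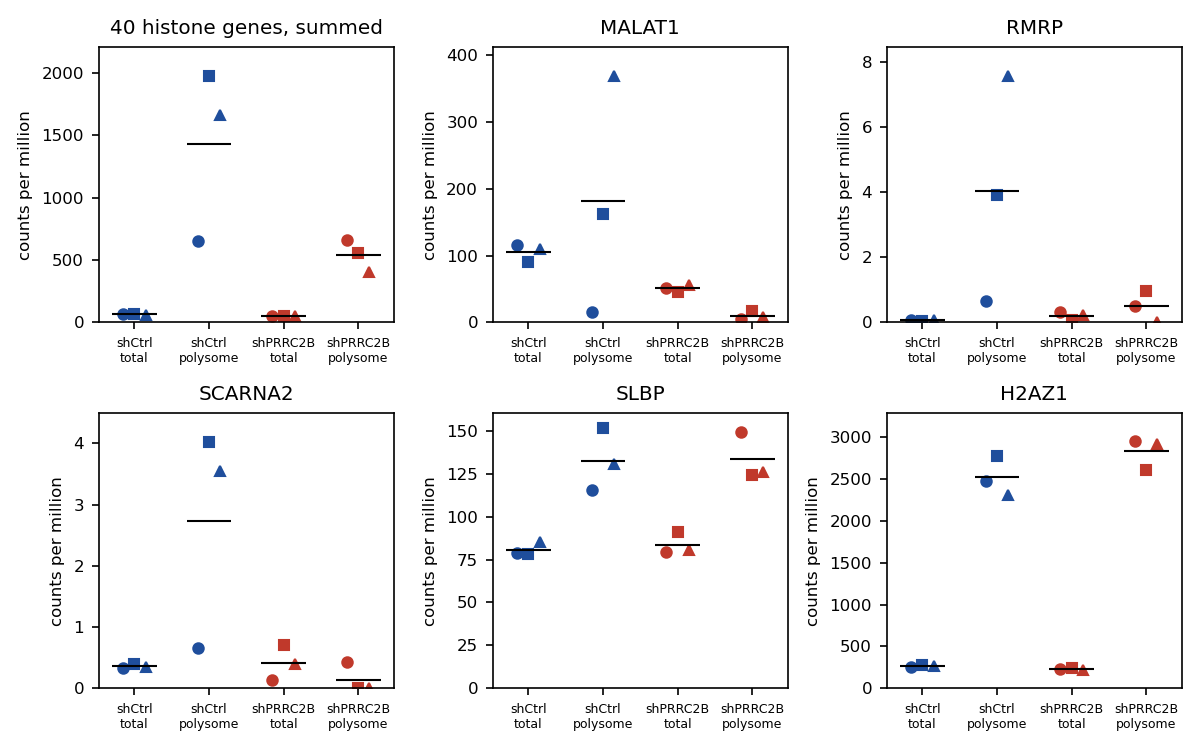
Level in CPM in each library for the 40 histone genes summed, for 3 RNAs without a poly(A) tail (MALAT1, RMRP, SCARNA2) and for 2 polyadenylated mRNAs (SLBP, H2AZ1), with replicates 1, 2 and 3 as circles, squares and triangles and the group mean as a line (linear axes from 0). The histone sum and the tailless RNAs are highest in shCtrl polysome 2 and 3, while SLBP (115 to 152) and H2AZ1 (2314 to 2962) differ little among the 6 polysome libraries.

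The third comparison asks about total RNA. Here 1 member was lower and 0 were higher, against 14.1% of all tested genes lower and 14.9% higher, in edgeR. Each gene has a single estimate of spread over all groups, so the wide spread of the shCtrl polysome libraries enters this test. With single libraries left out, 0 to 8 members were lower, against 10.2% to 16.8% of all genes. At an unadjusted p under 0.05 in edgeR, 7 members were lower and 1 higher, with no share of all genes computed. DESeq2 called 4 lower and 0 higher, against 14.8% and 15.4% of all genes. The median log2 change was −0.42 beside 0.04 over all genes, and −0.48 over the 37 members left without H2AC21, H4C1 and H4C2, which had 3 counts or fewer in each line. Of the members, 23 were below 0 and 16 above. All 3 shPRRC2B values were below all 3 shCtrl values in 11 members, or 27.5%, and over all tested genes this was so for 28.8%.

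H3C10 was the member called lower. It was at 1.85, 1.86 and 1.45 CPM in shCtrl total and 0.793, 0.966 and 0.831 in shPRRC2B total, without overlap. The difference was −1.0002 in log2 (SE 0.36, adjusted p = 0.0388, edgeR), and leaving out any single total library raised the adjusted p to between 0.0514 and 0.109. H4C9 was at 8.68, 7.49 and 9.54 against 5.88, 6.15 and 6.34, also without overlap, and its change of −0.48 (SE 0.18) missed the threshold (adjusted p = 0.0529). H2BC21 was at 3.55, 4.02 and 2.97 against 0.933, 1.04 and 0.699, from 247 and 65 counts, without overlap. Its change of −1.98 (SE 0.77) was larger than that of H3C10 but missed the threshold (adjusted p = 0.055). H2BC12 changed by −0.31 (SE 0.18, adjusted p = 0.213), and H1-2 by 0.23 (SE 0.26, adjusted p = 0.542).

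The fourth comparison concerns translation efficiency (TE), the level in polysome RNA over that in total RNA, and tests as an interaction whether it differed between the lines. It uses the same libraries as the comparisons above, so their outcomes are not independent of it. Of the 40 members, 4 were lower (TE-down) and 0 higher, against 16.4% of all tested genes lower and 10.7% higher. At an unadjusted p under 0.05 in edgeR it was 11 lower and 0 higher, with no share of all genes computed. DESeq2 called 8 lower and 0 higher, against 18.5% and 12% of all genes, so that the share lower was near that of all genes. The median was −1.12 beside −0.03 over all genes, and it was the same over the 38 members left without H2AC21 and H4C1. The 4 genes were H2AC16, H4C8, H2AC12 and H2BC4.

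Each of them had few counts in total RNA. H2AC16 had 3, 6 and 4 counts in shCtrl total and 7, 17 and 8 in shPRRC2B total, and was at 7.77, 37.2 and 24.3 CPM in shCtrl polysome against 4.82, 3.92 and 1.43 in shPRRC2B polysome. Its TE changed by −3.92 (SE 0.93, adjusted p = 0.00508). H4C8 had 13, 8 and 5 counts against 20, 29 and 17 in total RNA, and was at 9.55, 56.5 and 56.5 CPM against 14.2, 13.2 and 6.66 in polysome RNA.

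Its TE changed by −3.08 (SE 0.86, adjusted p = 0.0134), from a total level that was higher in all 3 shPRRC2B libraries and a polysome level that fell by 1.84 (SE 0.44, adjusted p = 0.00238). Without shCtrl polysome 2 and 3 the polysome change of H4C8 was 0.14 (adjusted p = 0.834) and its TE change −1.07 (adjusted p = 0.183). H2AC12 had 16 counts over the shCtrl total libraries and 17 over those of shPRRC2B. Its TE changed by −2.52 (SE 0.90, adjusted p = 0.0463), and leaving out any of 8 single libraries ended the call (adjusted p up to 0.209). H2BC4, named here because it completes the 4, changed by −2.18 (SE 0.79, adjusted p = 0.0486), and its call ended with any of 11 of the 12 single libraries left out (adjusted p up to 0.129) and under the replicate block (adjusted p = 0.0701). Without shCtrl polysome 2 and 3 together, 1 member was TE-down and 1 TE-up, against 14.5% and 7.83% of all genes, and the median was 0.08.

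The crosslinking tables of the study list PRRC2B sites in 6 members, namely H2BC18, which is on the list of bound mRNAs, H1-4, H4C5, H2AC11, H2BC12 and H3C2. All 6 were called lower in polysome RNA, as were 30 of all 40 members and 21.4% of all tested genes. The log2 changes of the 6 lay between −0.81 (H2BC12) and −2.80 (H4C5), and none of the 6 passed the test in total RNA or in TE. In TE, H1-4, H2BC18 and H2AC11 passed it without the filter on low counts (adjusted p = 9.9e-08, 4.9e-06 and 0.00122), H2AC11 also in DESeq2 (adjusted p = 0.047), and H2AC11 and H2BC12 with the length trend removed (adjusted p = 0.0379 and 0.0263) or without shCtrl polysome 1 (adjusted p = 0.000367 and 0.00956). H2BC12 also passed it without shPRRC2B polysome 1 (adjusted p = 0.0249). In total RNA H2AC11 passed it without the filter (adjusted p = 0.00464), without shCtrl polysome 1 (adjusted p = 0.00448) and without shCtrl polysome 2 and 3 (adjusted p = 0.00942). With all libraries their TE changes were −2.98 for H1-4 (SE 1.55, adjusted p = 0.166), −2.23 for H2BC18 (SE 1.55, adjusted p = 0.303), −1.39 for H2AC11 (adjusted p = 0.0759), −1.38 for H3C2 (adjusted p = 0.472), −1.29 for H4C5 (adjusted p = 0.656) and −0.51 for H2BC12 (adjusted p = 0.151). H2AC11 was the 1 gene of these 6 whose polysome fall passed the test without shCtrl polysome 2 and 3.

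Genes that make and handle histone mRNA were described as lists. Beside these lists and the other histone genes below, the shares of all tested genes higher and lower were 14.9% and 14.1% in total RNA. They were 18.4% and 21.4% in polysome RNA, and 10.7% and 16.4% in TE. Against total RNA, the polysome median over all tested genes under 1000 nt was 2.26 in shCtrl and 2.84 in shPRRC2B. Over 3000 nt it was −1.13 and −1.52. The lists were not corrected for transcript length, and its part in their values was not tested. Of 17 genes for histone transcription and 3′ end processing, 4 were higher and 13 not called in total RNA (median 0.05), 1 higher and 4 lower in polysome RNA (median −0.34), and 2 higher and 7 lower in TE (median −0.25). SLBP, the hairpin binding protein, was at 115, 152 and 131 CPM in shCtrl polysome and 149, 124 and 126 in shPRRC2B polysome, a change of 0.01 (SE 0.13, adjusted p = 0.976). NPAT, which drives histone transcription in S phase, changed by −1.20 in polysome RNA (SE 0.27, adjusted p = 0.00167) from 10.8, 11 and 6.99 to 5.93, 2.01 and 4.47 CPM. LSM10, a subunit of the U7 particle that cuts histone pre-mRNA, rose in total RNA by 0.58 (SE 0.13, adjusted p = 0.00178) and in polysome RNA by 1.13 (SE 0.12, adjusted p = 1.69e-06).

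Of 11 genes for histone mRNA translation and decay, 2 were higher and 9 not called in total RNA (median 0.14), 2 higher and 4 lower in polysome RNA (median −0.35) and 1 higher and 5 lower in TE (median −0.51). MIF4GD, a partner of SLBP in translation, rose in polysome RNA by 0.94 (SE 0.15, adjusted p = 0.000108), and XRN1, the 5′ to 3′ exonuclease, changed by −1.65 (SE 0.26, adjusted p = 6.87e-05). Of 20 tested genes for histone chaperones, 3 were higher and 17 not called in total RNA (median 0.19), 1 higher and 6 lower in polysome RNA (median −0.24) and 8 lower and 12 not called in TE (median −0.50).

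The 15 other histone genes, mostly replication-independent variants, had a median polysome change of −0.02, with 2 higher and 3 lower. In total RNA 1 was higher and 4 were lower (median 0.00), and in TE 2 were higher and 2 lower (median −0.02). H2AZ1 gave 0.17 in polysome RNA (SE 0.13, adjusted p = 0.298). H2BU1, an H2B gene on this list, was at 8.71, 23.3 and 27.5 CPM in shCtrl polysome and 9.63, 8.50 and 4.47 in shPRRC2B polysome. Its shCtrl replicate 1 lay near the shPRRC2B libraries, as in most of the 40 genes.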

How the data were processed

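Per the study's methods and the labels, total and polysome RNA was enriched for poly(A) RNA and sequenced as read pairs, and the authors demultiplexed with bcl2fastq 2.19.0, trimmed with Trimmomatic 0.36, aligned with HISAT2 (2.1.0 per the labels, a later release per the methods) to GRCh38 and counted with featureCounts (Subread 2.0.1) on GENCODE 38. The values deposited are raw counts per gene, not normalized. The 12 columns were matched to samples by title, and 0 value columns were left unmatched. The members, gene lists and tests were chosen with earlier results of these data known.

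From the counts, TMM factors and log2 changes with standard errors were computed with edgeR 4.0.16 in R 4.3.3. All 12 libraries were fitted together by group (filterByExpr, minimum count 10) with the quasi-likelihood test, and p-values were adjusted by Benjamini-Hochberg over all 18166 genes, the called genes having adjusted p under 0.05 and a log2 change past 0.5. Adjusted p-values without another tool named are edgeR's. CPM values are TMM-scaled. SD measures the spread between the 3 replicates of a group. The tests use a single estimate of spread per gene over all groups, so the spread of the shCtrl polysome libraries also enters the total RNA tests. Depth was 9855734 to 20837542 counts per library, at which 15 members had under 10 counts in every total library. Genes named were the 2 members of each family with the most reads, the 3 strongest rises and falls per comparison, the 6 with PRRC2B sites, H4C8 and the 2 genes at the count limit, with SLBP, NPAT and PRRC2B. Other members named were chosen after their values were seen. Alternatives were RLE factors, library totals, DESeq2 1.42.0, no filter (genes with any count), a replicate block, removal of a lowess trend on transcript length, each library left out, and shCtrl polysome 2 and 3 left out. The TE test was tried on simulated data in edgeR and DESeq2, and the other tests were not. Lengths, hairpins and unique 50-base windows came from GENCODE 44 and GRCh38. Levels per kb use the canonical transcript, which for H2BC21 is the long form of 2224 nt. Counts cover all annotated exons, so these levels can be too high for members with longer transcripts.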

Additional observations from a re-analysis of the deposited data

Results flagged for a closer look

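TE differed between the lines, by the interaction test in edgeR over all genes, for 4 members. Its log2 value was −3.92 for H2AC16 (adjusted p = 0.00508), −3.08 for H4C8 (adjusted p = 0.0134), −2.52 for H2AC12 (adjusted p = 0.0463) and −2.18 for H2BC4 (adjusted p = 0.0486). The calls of H2AC12 and H2BC4 ended with any of 8 and 11 single libraries left out. In all 4 genes shCtrl polysome 2 and 3 were the highest of the 6 polysome libraries. MALAT1, RMRP and SCARNA2, RNAs without a poly(A) tail, were highest in the same libraries and had TE changes of −3.21, −4.65 and −4.33 (adjusted p = 0.0145, 0.0258 and 0.0158), and what this had to do with the histone values was not tested.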

How the results depend on the processing

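Over all tested genes the share lower in polysome RNA was 21.4%, and 12.5% to 22.7% under the alternative settings. With single libraries left out this share was 20.1% to 24.5%. The count of members lower in polysome RNA was 30, and 26 to 33 under RLE factors, library totals, DESeq2, no filter, the replicate block or the length correction. It was 23 to 32 with single libraries left out, and 2 without shCtrl polysome 2 and 3 together (a choice made after the data had been seen). That omission leaves 1 shCtrl polysome library. It gave medians over the members of −0.46 in polysome RNA, −0.47 in total RNA and 0.08 in TE. In polysome RNA 8 members turned. Of these, 6 had been called lower: H2AC21 (0.42), H2AC6 (0.20), H2BC11 (0.60), H4C1 (0.22), H4C2 (0.076) and H4C8 (0.14). H3C6 (0.66) and H4C9 (−0.43) had not been called. Of all genes, 16.4% were lower in TE, 18.5% in DESeq2 and 8.86% without the filter. The share was 10.8% with the length trend removed and 9.81% with it removed in the replicate block. With single libraries left out, 12.4% to 19.6% of all genes were lower and 6.82% to 13.3% higher. The share lower was 19.6% without shCtrl polysome 1 and 18.8% without shPRRC2B polysome 1. Members lower in TE numbered 4, and 8 in DESeq2, 14 without the filter, 10 with the length trend removed and 7 with it removed in the replicate block. With single libraries left out they numbered 2 to 14: 14 without shCtrl polysome 1, 8 without shPRRC2B polysome 1, and 2 without any of shCtrl total 1 or 2, shCtrl polysome 2 or 3, shPRRC2B total 3 and shPRRC2B polysome 3. On the same omissions 0 to 1 were higher. In total RNA 14.1% of all genes were lower, 16.4% by library totals, 14.8% in DESeq2 and 7.82% without the filter. The share was 13.4% with the replicate block and 15.4% with the length trend removed. It was 10.2% to 11.7% with a single total library left out and 15% to 16.8% with a single polysome library left out. Members lower in total RNA numbered 1, and 3 by library totals, 4 in DESeq2, 8 without the filter, 2 with the replicate block, 0 with the length trend removed and 0 to 8 with single libraries left out: 0 without any of the 6 total libraries, 8, 4 and 2 without shCtrl polysome 1, 2 and 3, and 3 without shPRRC2B polysome 1 or 3. Members higher there numbered 0 (against 14.9% of all genes), and 1 without the filter (7.01%), 1 with the length trend removed (13.1%) and 0 to 2 with single libraries left out (11.2% to 13.8%). The 1 member higher in polysome RNA (against 18.4% of all genes) gave 0 to 1 on single omissions (13.2% to 17.7%) and 0 with the length correction in the replicate block (18.8%). Against total RNA in shPRRC2B, members higher numbered 37 (against 36.6% of all genes), and 17 with the length trend removed (34.5%) and 20 with it in the block (34%). Members lower there numbered 0 (42.3%), and 1 by library totals (56.2%), 2 with the length trend removed (33.8%), 2 with it in the block (33.5%) and 0 to 1 on single omissions (40.6% to 43.4%). In shCtrl members lower numbered 1 (39.8%), and 2 (29.7%), 2 (29.6%) and 0 to 1 (37.4% to 40%) under the same 2 corrections and omissions. H2BC9 turned to −0.26 in shCtrl (−0.27 in the block) and H2AC11 to −0.45 in shPRRC2B (−0.40 in the block). The causes were not tested. Deviations of same-numbered libraries from their group means correlated between −0.06 and 0.05 over 18 pairs, so the numbers were not taken to pair them, and the replicate block left 26 members lower in polysome RNA and 4 in TE. Low total counts limit TE: 15 members had under 10 counts in every total library.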
